A study of Saccharomyces cerevisiae with 8 samples.

Results

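The COS and PAU genes are multigene families that lie mostly near the ends of yeast chromosomes. Members were all features whose gene name is COS or PAU followed by a number, either in the authors' deposited table or as the RefSeq name of the systematic identifier. The rule found 36 members among the 9014 features of the count table, 12 with a COS name and 24 with a PAU name. COS111 carries a COS name but its protein is unrelated in sequence to the other 11, so it was kept as a member and described apart.

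Polyadenylated RNA of budding yeast was sequenced with SOLiD chemistry from 4 strains, with 2 libraries each. The rrp6 cells carried rrp6::LEU2, the air1 rrp6 cells rrp6::LEU2 and air1::bleR, and the air2 rrp6 cells rrp6::LEU2 and air2::bleR. The wild type (WT) was BY4742, and all 4 strains were MAT-alpha with the alleles his3D1, leu2D0, lys2D0 and ura3D0. A culture in YPD, a rich medium, was started from 1 colony of each strain and harvested near an OD600 of 2.5 after growth at 30 °C. All 6 libraries without RRP6 also carry LEU2, which WT lacks, so the loss of RRP6 and the gain of LEU2 cannot be told apart in any comparison with WT. The labels do not say whether the 2 libraries of a strain came from separate cultures, so the spread behind each p-value may be technical.

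COS proteins, also called the DUP380 family, are membrane proteins that help to sort other membrane proteins through endosomes to the vacuole for breakdown. PAU proteins, the seripauperins, are small serine-rich proteins related to cell wall mannoproteins, and many PAU genes are known to be repressed by oxygen and heme and to be induced in low oxygen. Rrp6 is a 3′ to 5′ exonuclease of the nuclear RNA exosome, and Air1 and Air2 are RNA-binding subunits of the TRAMP complexes, which add short poly(A) tails to nuclear RNAs that the exosome then trims or destroys. Genes near telomeres are also known to be subject to silencing by Sir proteins.

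The smallest library held 13787609 counts (WT replicate 1) and the largest 124620247 (WT replicate 2). Ribosomal DNA took 51.7 to 82.3% of these, which left 4565468 to 22041136 counts per library for all other features. RRP6 had 19 to 51 counts in the 6 libraries labelled as lacking it, against 377 and 2131 in WT. In air1 rrp6 cells 7 and 2 counts fell on AIR1, and in air2 rrp6 cells 34 and 21 fell on AIR2, against 210 and 1212 counts of AIR1 and 102 and 479 counts of AIR2 in WT. LEU2 had 219 to 559 counts in the 6 mutant libraries and 0 in both WT libraries.

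The members differ in how much of their sequence is their own, which bears on every value below. In the RefSeq annotation (R64 assembly, used by systematic name because no source used here names the authors' build), 4 pairs have identical coding sequences: COS2 and COS3, PAU1 and PAU14, PAU6 and PAU18, and PAU21 and PAU22. Each of these pairs also had identical counts in all 8 libraries, so the 2 genes of a pair hold 1 measurement between them. Among the 11 related COS proteins, identity ran from 35.1 to 100% with a median of 74.5%. Among the PAU proteins without PAU7 and PAU9, it ran from 63.4 to 100% with a median of 87.0%.

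PAU12 is the PAU gene with the most called changes, and a short stretch of its coding sequence shows how little separates it from its copies. Bases 226 to 285 of the coding sequence are printed 5′ to 3′. Capitals in PAU12 mark the bases that differ from PAU24, its nearest relative, and capitals in the others mark the bases that differ from PAU12.
PAU12: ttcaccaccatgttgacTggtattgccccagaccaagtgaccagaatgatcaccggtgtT
PAU24: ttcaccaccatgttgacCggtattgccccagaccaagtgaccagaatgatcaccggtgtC
PAU6: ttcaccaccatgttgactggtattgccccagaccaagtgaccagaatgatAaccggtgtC
PAU8: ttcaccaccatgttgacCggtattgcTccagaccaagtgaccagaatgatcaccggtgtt
Each of the other 3 sequences differs from PAU12 at 2 of these bases. Over the whole coding sequence of 363 bases, PAU24 differs from PAU12 at 4 bases, PAU6 at 15 and PAU8 at 17.

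COS8, the COS gene called in the most comparisons, stands further from its copies. Bases 1024 to 1083 of its coding sequence are printed with capitals at the bases that differ between COS8 and COS6, its nearest relative, and in COS1 at the bases that differ from COS8.
COS8: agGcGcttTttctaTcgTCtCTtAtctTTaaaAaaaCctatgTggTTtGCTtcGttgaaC
COS6: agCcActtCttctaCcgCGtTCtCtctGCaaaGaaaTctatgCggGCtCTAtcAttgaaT
COS1: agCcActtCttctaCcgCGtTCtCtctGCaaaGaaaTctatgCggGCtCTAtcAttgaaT
COS6 and COS1 are identical to each other in this stretch, and each differs from COS8 at 21 bases. Over the 1146 bases of the coding sequence, COS6 differs from COS8 at 153 and COS1 at 194.

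The share of a gene's 35-base words that occur nowhere else in the genome puts this on 1 scale. Every word was unique in 89.7% of 6021 coding genes. Among the COS genes this share was 100% in COS12 and COS111, 98.7% in COS10, 97.7% in COS9, 68.8% in COS8, 49.2% in COS6, 24.6% in COS7 and 0% in COS2 and COS3. Among the PAU genes it reached 88.1% at most, was 10.6% in PAU12 and was 0% in 7 genes. The family medians were 36.9% for COS and 20.5% for PAU. No source used here gives the read length, so the word length is only a guide.

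**Figure D1:**
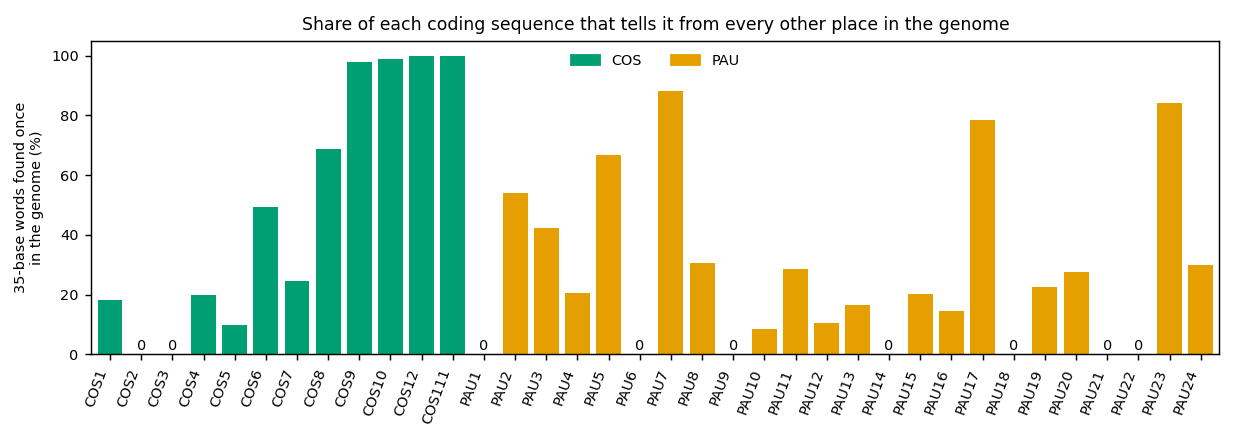
Share of 35-base words of each coding sequence that are unique in the R64 genome, in percent on the y axis, for each COS gene and each PAU gene. COS9, COS10, COS12 and COS111 lie above 90%, and 7 PAU genes and the COS2 and COS3 pair lie at 0%.

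The deposited counts carry a related mark. Counts were whole numbers in all 8 libraries for 87.2% of 6007 coding genes, within a tolerance of 1e-06. They were whole for 3 of 12 COS genes (COS10, COS12 and COS111) and for 0 of 24 PAU genes. COS9, with 97.7% unique words, had counts that were not whole in all 8 libraries, as had PAU12 with 10.6%. How many reads of relatives a member's value holds was not tested.

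Position within the chromosome ran alongside. All 11 related COS genes lie within 7 genes of a chromosome end and 4 are the outermost annotated gene. Of the PAU genes, 19 of 24 lie within 7 genes of an end and 3 are outermost. The 5 PAU genes further in (PAU2, PAU5, PAU7, PAU17 and PAU23) had 54.1 to 88.1% unique words, against 0 to 42.2% in the other 19. The families meet in 2 places, where COS2 is the neighbour of PAU24 on chromosome II and COS6 is the neighbour of PAU12 on chromosome VII. COS111 is the 103rd gene from an end of chromosome II.

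Levels below are expected counts scaled to library size as CPM, with the size corrected by TMM (the trimmed mean of M-values). Different genes are compared only per kilobase of coding sequence. COS6 was the most abundant member. It averaged 53.4 CPM per kb over the 8 libraries, with a range of 40.1 to 62.7, and its lowest library lay above the highest library of every other member. COS9 averaged 15.4 CPM per kb, COS8 13.6 and COS1 13.2, and the ranges of these 3 genes overlapped. COS7 averaged 6.82, COS10 5.28, COS2 and COS3 3.90 each, COS5 3.63 and COS4 2.46, with overlapping neighbours throughout. COS111 averaged 1.58 and COS12 0.617 CPM per kb.

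The PAU genes averaged 0.089 to 2.36 CPM per kb, a range that takes in COS12 and COS111 and ends just below COS4. PAU12 averaged 2.36 CPM per kb, PAU6 and PAU18 2.25 each, PAU4 1.44 and PAU24 1.38, and the ranges of these overlapped. PAU15 and PAU16 were lowest at 0.089 CPM per kb each. In the bulk samples used here, fewer cells transcribing a gene and less RNA per cell cannot be told apart.

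All 12 COS genes passed the filter on low counts. Against WT, COS8 was higher in all 3 mutant strains, COS10 was higher in both double mutants, and COS7 was lower in air2 rrp6 cells. The remaining 9 COS genes passed the test in no comparison. Of the 12, 1 was called higher in rrp6 cells, where 8.8% of all 7543 features tested were called higher. In air1 rrp6 cells 2 were called higher (background 7.64%), and in air2 rrp6 cells 2 were called higher (background 8.75%) and 1 lower (background 1.54%). By edgeR 0 COS genes were called lower in rrp6 or air1 rrp6 cells, and DESeq2 gave the same totals of calls, where 1.29% and 0.756% of all features were. In either direction, 10.1%, 8.39% and 10.3% of all features were called in rrp6, air1 rrp6 and air2 rrp6 cells. Here and below, shares over all features also take in features that are not coding genes. Of the 9014 features in the count table, 6007 are coding genes. Shares over coding genes alone were not computed, so these backgrounds are only a rough guide for gene families and lists. The median log2 fold change of the COS genes was 0.25, 0.13 and 0.04 in rrp6, air1 rrp6 and air2 rrp6 cells, beside 0.01, 0.02 and 0.03 over all features. These 3 comparisons share the WT libraries. Every test was the quasi-likelihood test of edgeR, its p adjusted by Benjamini-Hochberg over all features, with a threshold of 0.05.

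COS8 had 19.4 and 20.9 CPM in rrp6 cells, 17.7 and 17.4 CPM in air1 rrp6 cells and 14.1 and 20.3 CPM in air2 rrp6 cells, against 6.30 and 8.85 CPM in WT. All 6 mutant libraries lay above both WT libraries. The share of all features with all 6 mutant libraries on 1 side of WT was not counted, here or below. The log2 fold change against WT was 1.39 ± 0.26 (SE, n = 2 each) in rrp6 cells with an edgeR adjusted p of 0.0086. It was 1.19 ± 0.26 in air1 rrp6 cells (edgeR adjusted p = 0.021) and 1.17 ± 0.25 in air2 rrp6 cells (edgeR adjusted p = 0.018). Without WT replicate 1 the values were 1.09 (edgeR adjusted p = 0.060), 0.91 (edgeR adjusted p = 0.12) and 0.84 (edgeR adjusted p = 0.12), and all 3 calls ended. The air1 rrp6 call also ended without either library of that strain (edgeR adjusted p = 0.10 each), and the air2 rrp6 call ended without its replicate 2 (0.88, edgeR adjusted p = 0.16).

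COS10, whose words are almost all unique, had 5.45 and 5.81 CPM in rrp6 cells, 9.20 and 5.76 CPM in air1 rrp6 cells and 8.58 and 6.87 CPM in air2 rrp6 cells, against 2.58 and 3.26 CPM in WT. Every mutant library lay above both WT libraries. The log2 fold change was 1.33 ± 0.31 in air1 rrp6 cells (edgeR adjusted p = 0.030) and 1.38 ± 0.31 in air2 rrp6 cells (edgeR adjusted p = 0.020). In rrp6 cells it was 0.93 ± 0.31 and did not pass (edgeR adjusted p = 0.10). The air1 rrp6 call ended in a fit of the 2 strains alone (1.35, edgeR adjusted p = 0.074) and without WT replicate 1 (1.11, edgeR adjusted p = 0.13), WT replicate 2 (1.52, edgeR adjusted p = 0.080), air1 rrp6 replicate 1 (0.92, edgeR adjusted p = 0.24) or either air2 rrp6 library (edgeR adjusted p = 0.055 and 0.053). The air2 rrp6 call ended without WT replicate 1 (1.14, edgeR adjusted p = 0.099), WT replicate 2 (1.54, edgeR adjusted p = 0.063), air2 rrp6 replicate 1 (1.22, edgeR adjusted p = 0.13) or air2 rrp6 replicate 2 (1.54, edgeR adjusted p = 0.062).

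COS7 ran the other way. It had 5.77 and 8.06 CPM in rrp6 cells, 9.62 and 6.67 CPM in air1 rrp6 cells and 5.92 and 5.01 CPM in air2 rrp6 cells, against 10.7 and 11.2 CPM in WT. Every mutant library lay below both WT libraries. The log2 fold change was -1.001 ± 0.27 in air2 rrp6 cells (edgeR adjusted p = 0.047), -0.67 ± 0.27 in rrp6 cells (edgeR adjusted p = 0.17) and -0.43 ± 0.27 in air1 rrp6 cells (edgeR adjusted p = 0.45). This is the least stable of the calls. It ended in 8 of 18 alternatives, among them scaling by library totals (-0.08, edgeR adjusted p = 0.91), TMM over coding genes (-0.94, edgeR adjusted p = 0.058) and totals outside the ribosomal DNA (-0.89, edgeR adjusted p = 0.077). It also ended without WT replicate 1 (-1.14, edgeR adjusted p = 0.062), WT replicate 2 (-1.01, edgeR adjusted p = 0.12), air1 rrp6 replicate 2 (-0.999, edgeR adjusted p = 0.058), air2 rrp6 replicate 1 (-1.13, edgeR adjusted p = 0.14) or air2 rrp6 replicate 2 (-0.89, edgeR adjusted p = 0.26).

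COS6 had 71.8 and 62.3 CPM in rrp6 cells, 66.6 and 64.2 CPM in air1 rrp6 cells and 65.2 and 66.9 CPM in air2 rrp6 cells, against 46.7 and 45.9 CPM in WT. The mutant libraries did not overlap with WT, yet the test was not passed. The log2 fold change was 0.53 ± 0.18, 0.50 ± 0.18 and 0.51 ± 0.18 in rrp6, air1 rrp6 and air2 rrp6 cells, with edgeR adjusted p of 0.10, 0.14 and 0.11. Libraries of a pair of groups fail to overlap often here. Over all features tested, every rrp6 library lay above every WT library in 28.5% and below in 22.0%, and the shares for the double mutants were similar (28.6 and 20.1% for air1 rrp6, 30.7 and 22.9% for air2 rrp6). These shares take 1 mutant strain at a time.

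COS9, the second most abundant per kilobase, had 25.6 and 19.0 CPM in rrp6 cells, 21.1 and 16.8 CPM in air1 rrp6 cells and 20.9 and 16.7 CPM in air2 rrp6 cells, against 15.1 and 15.95 CPM in WT. Each mutant library of COS9 lay above both WT libraries, as for COS6, yet the test was not passed. Its log2 fold change was 0.52 ± 0.23, 0.28 ± 0.23 and 0.27 ± 0.23, with edgeR adjusted p of 0.22, 0.60 and 0.57. The COS2 and COS3 pair had 2.51 and 3.93 CPM per gene in rrp6 cells, 6.41 and 4.84 CPM in air1 rrp6 cells and 2.21 and 4.66 CPM in air2 rrp6 cells, against 7.05 and 3.97 CPM in WT. WT itself spanned most of that range. COS12, the lowest of the related genes, had 0.952 and 0.891 CPM in rrp6 cells, 0.810 and 0.589 CPM in air1 rrp6 cells and 0.396 and 0.687 CPM in air2 rrp6 cells, against 0.725 and 0.592 CPM in WT. COS1, COS4 and COS5 overlapped between WT and at least 1 mutant strain and none of the 3 passed the test. COS111, which is known for resistance to the antifungal ciclopirox olamine, had 5.02 and 3.73 CPM in rrp6 cells, 4.92 and 2.23 CPM in air1 rrp6 cells and 4.81 and 3.59 CPM in air2 rrp6 cells, against 6.36 and 4.39 CPM in WT, and its edgeR adjusted p was 0.51 to 0.73.

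**Figure D2:**
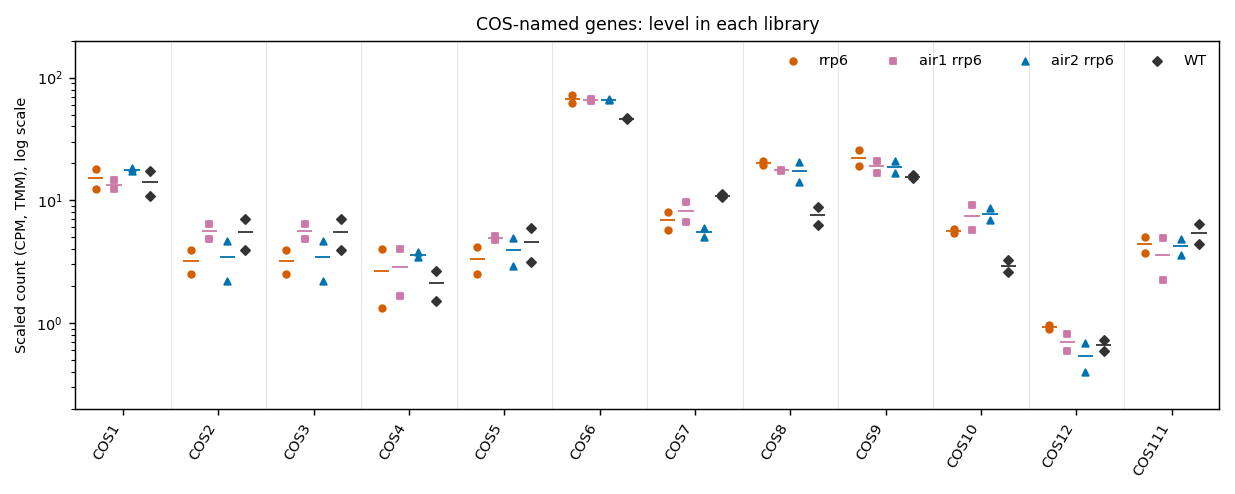
Level of each COS gene in every library, in TMM-scaled CPM on a log axis, with 1 point per library and the strains in the order rrp6, air1 rrp6, air2 rrp6 and WT. COS6, COS8, COS9 and COS10 lie higher in all 6 mutant libraries than in both WT libraries, and COS7 lies lower.

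Summed over the 11 related COS genes, the level was 155.8 and 145.5 CPM in rrp6 cells, 158.9 and 142.4 CPM in air1 rrp6 cells and 144.6 and 151.4 CPM in air2 rrp6 cells, against 115.7 and 115.6 CPM in WT. The mean was 1.30 times WT in rrp6 cells, 1.30 times in air1 rrp6 cells and 1.28 times in air2 rrp6 cells. COS6 and COS8 held most of the difference. Of a mean difference from WT of 35.01 CPM in rrp6 cells, COS6 held 20.7 CPM and COS8 12.5 CPM, while COS7 was 4.01 CPM lower than in WT. In air1 rrp6 cells COS6 held 19.1 and COS8 9.95 of 34.95 CPM, and in air2 rrp6 cells they held 19.7 and 9.64 of 32.3 CPM. COS6 alone made up 39.8 to 46.1% of the family's level in each library.

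Of the scalings tried, library totals moved these sums most, and the other alternatives to TMM gave ratios to WT of 1.27 to 1.40. With library totals in place of TMM, the ratios of the COS sum to WT were 1.99, 2.14 and 2.39 in rrp6, air1 rrp6 and air2 rrp6 cells. The same change moved the median log2 fold change of all features against WT to 0.64, 0.77 and 0.95, so changes here are given relative to the TMM scaling. The share of the ribosomal DNA, which enters the totals, was 82.3% in WT replicate 2.

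The PAU genes were at the edge of what these libraries could measure. Of the 24, 15 passed the filter on low counts, and PAU3, PAU7, PAU9, PAU11, PAU15, PAU16, PAU19, PAU21 and PAU22 did not. The 15 had 55.4 to 203.6 counts in the 8 libraries together and at most 52.3 in 1 library, and the other 9 had 7.4 to 62.7 together. PAU12 was higher than in WT in rrp6 cells and in air2 rrp6 cells. It was the only PAU gene past the threshold in any of the 6 comparisons. Of the 15 tested, 1 was called higher in rrp6 cells, 0 in air1 rrp6 cells and 1 in air2 rrp6 cells, beside backgrounds of 8.8, 7.64 and 8.75%. In rrp6, air1 rrp6 and air2 rrp6 cells, 4, 3 and 7 of the 15 PAU genes had an unadjusted p below 0.05 by edgeR. In the same order, 1750, 1492 and 1689 of all 7543 features had such a p. The 4 and the 7 each count PAU6 and PAU18, which share 1 measurement. DESeq2 called 1, 0 and 1 PAU genes.

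PAU12 had 1.43 and 0.877 CPM in rrp6 cells, 0.381 and 0.851 CPM in air1 rrp6 cells and 1.38 and 1.55 CPM in air2 rrp6 cells, against 0.145 and 0.232 CPM in WT. These levels rest on 49.6 and 20.7 expected counts in rrp6 cells, 6.6 and 20.2 in air1 rrp6 cells and 52.3 and 38.4 in air2 rrp6 cells, against 1.8 and 14.1 in WT. All 6 mutant libraries lay above both WT libraries. The log2 fold change was 2.46 ± 0.59 in rrp6 cells (edgeR adjusted p = 0.028), 2.76 ± 0.59 in air2 rrp6 cells (edgeR adjusted p = 0.016) and 1.58 ± 0.62 in air1 rrp6 cells (edgeR adjusted p = 0.18).

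The rrp6 call of PAU12 ended in a fit of the 2 strains alone (2.50, edgeR adjusted p = 0.084) and without WT replicate 1 (2.25, edgeR adjusted p = 0.086), WT replicate 2 (2.82, edgeR adjusted p = 0.10), rrp6 replicate 1 (2.06, edgeR adjusted p = 0.16) or either air2 rrp6 library (edgeR adjusted p = 0.057 and 0.056). The air2 rrp6 call of PAU12 ended without WT replicate 2 (3.09, edgeR adjusted p = 0.083), air2 rrp6 replicate 1 (2.85, edgeR adjusted p = 0.060) or air2 rrp6 replicate 2 (2.69, edgeR adjusted p = 0.082).

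PAU6 and PAU18, next in level, shared 1 measurement of 1.07 and 0.897 CPM per gene in rrp6 cells, 0.755 and 0.747 CPM in air1 rrp6 cells and 1.16 and 0.975 CPM in air2 rrp6 cells, against 0.631 and 0.302 CPM in WT. The libraries of each mutant strain lay above WT. The log2 fold changes of PAU6 were 1.23 ± 0.55, 0.85 ± 0.57 and 1.35 ± 0.54, with edgeR adjusted p of 0.22, 0.48 and 0.17. PAU5, which lies 48 genes from a chromosome end, had 0.231 and 0.278 CPM in rrp6 cells, 0.284 and 0.488 CPM in air1 rrp6 cells and 0.274 and 0.403 CPM in air2 rrp6 cells, against 0.161 and 0.033 CPM in WT. Its log2 fold change of 2.62 ± 0.93 in air1 rrp6 cells had the largest size of any PAU gene there and did not pass (edgeR adjusted p = 0.14).

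Across the family the levels leaned one way. Of all 24 PAU genes, filtered or not, the mean level was above WT in 22 in rrp6 cells, 21 in air1 rrp6 cells and 21 in air2 rrp6 cells. The exceptions were PAU7 and PAU9 in rrp6 cells and PAU9, PAU21 and PAU22 in both double mutants. For the COS genes the same counts were 7, 9 and 6 of 12. Over all features tested, 50.9, 52.4 and 52.4% had a log2 fold change above 0. Those shares rest on fitted values of features that passed the filter, unlike the counts of mean levels over all 24 PAU genes. The 15 PAU genes that passed the filter had log2 fold changes of 0.61 to 2.46 in rrp6 cells, 0.35 to 2.62 in air1 rrp6 cells and 1.03 to 2.76 in air2 rrp6 cells. Since near-identical copies share sequence, and a low gene passes the filter through the strains where it is high, these 15 values are not 15 separate observations. The common lean was therefore not tested over the members, and a fit of summed copies is given below.

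**Figure D3:**
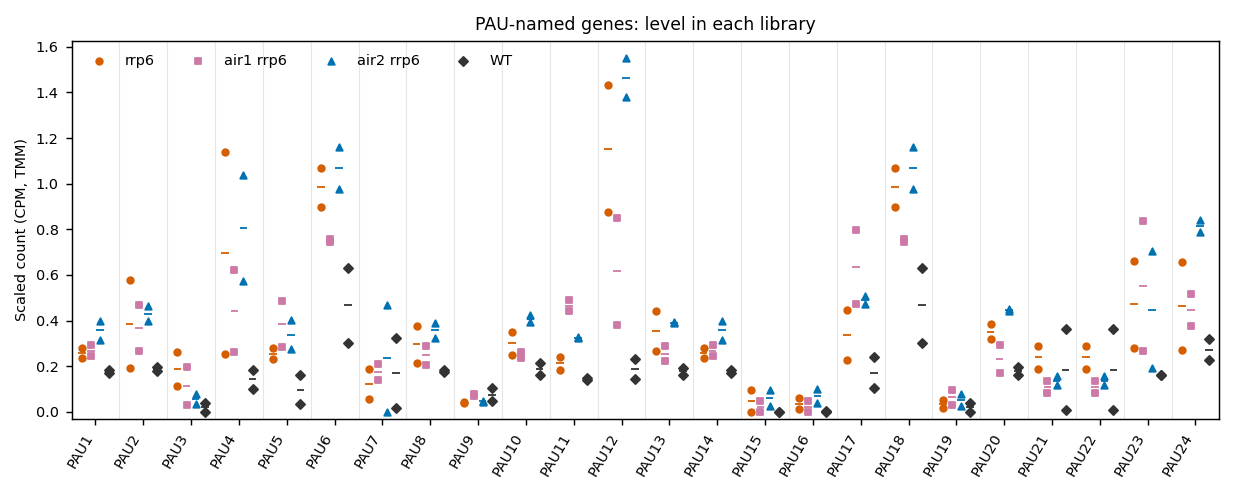
Level of each PAU gene in every library, in TMM-scaled CPM, with 1 point per library and the strains in the order rrp6, air1 rrp6, air2 rrp6 and WT. PAU12 shows 0.381 to 1.55 CPM in the 6 mutant libraries against 0.145 and 0.232 CPM in WT, and most other members lie below 0.5 CPM in every library.

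The sum over all 24 PAU genes does not change with how a shared read is divided, if the read was kept and matches only these genes. Neither condition was tested. The sum was 10.8 and 6.62 CPM in rrp6 cells, 7.23 and 8.03 CPM in air1 rrp6 cells and 10.8 and 9.93 CPM in air2 rrp6 cells, against 4.99 and 3.08 CPM in WT. All 6 mutant libraries lay above both WT libraries. The mean was 8.70 ± 2.95 CPM in rrp6 cells, 7.63 ± 0.56 CPM in air1 rrp6 cells, 10.4 ± 0.61 CPM in air2 rrp6 cells and 4.03 ± 1.35 CPM in WT (SD, n = 2 each). The ratios to WT were 2.16, 1.89 and 2.57, and with library totals 3.17, 2.99 and 4.48. The largest group of copies, 13 PAU genes linked by proteins at least 97% identical and including PAU12, summed to 8.30 and 5.09 CPM in rrp6 cells, 4.86 and 5.86 CPM in air1 rrp6 cells and 8.72 and 7.86 CPM in air2 rrp6 cells, against 3.197 and 2.70 CPM in WT. Fitted as 1 feature, this sum had a log2 fold change against WT of 1.20 ± 0.31 in rrp6 cells (edgeR adjusted p = 0.037). It was 0.87 ± 0.31 in air1 rrp6 cells (edgeR adjusted p = 0.14) and 1.51 ± 0.31 in air2 rrp6 cells (edgeR adjusted p = 0.014). The sums of PAU17 with PAU23 and of PAU21 with PAU22 passed the test in no comparison.

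**Figure D4:**
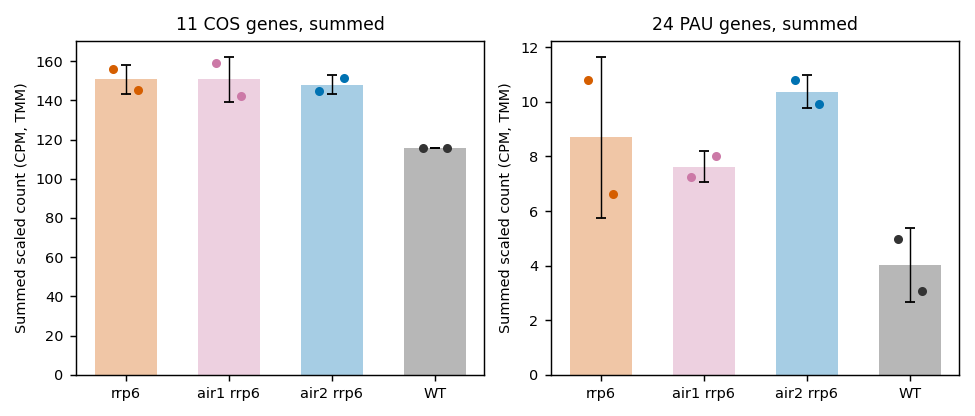
Summed level of the 11 related COS genes and of the 24 PAU genes in TMM-scaled CPM, with 1 point per library and the mean of each strain, in the order rrp6, air1 rrp6, air2 rrp6 and WT. The COS sum is 142.4 to 158.9 CPM in mutant libraries against 115.6 and 115.7 CPM in WT, and the PAU sum is 6.62 to 10.8 CPM against 3.08 and 4.99 CPM in WT.

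Between the mutant strains no member of either family passed the test. Among the 12 COS and 15 PAU genes, 0 were called for air1 rrp6 against rrp6 (background 0.0663%), for air2 rrp6 against rrp6 (background 0.0133%) and for air1 rrp6 against air2 rrp6 (background 0.0795%). The count with an unadjusted p below 0.05 by edgeR was also 0 in all 3, beside 429, 201 and 301 of all 7543 features. DESeq2 called 0 as well. So few features were called at all in these comparisons that the absence says little about these families. COS8 in air1 rrp6 against rrp6 had a log2 fold change of -0.20 ± 0.25, and in air2 rrp6 against rrp6 of -0.23 ± 0.25. COS10 had 0.40 ± 0.30 and 0.46 ± 0.30, so that its passing the test against WT in the double mutants and not in rrp6 cells is not shown to be a difference between those strains.

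The largest log2 fold changes between mutants were in low or shared genes. For the COS genes they were 0.81 ± 0.45 for COS2 in air1 rrp6 against rrp6 (edgeR adjusted p = 0.78), -0.79 ± 0.52 for COS12 in air2 rrp6 against rrp6 (edgeR adjusted p = 0.9999) and 0.72 ± 0.44 for COS2 in air1 rrp6 against air2 rrp6 (edgeR adjusted p = 0.99). For the PAU genes they were 0.94 ± 0.67 for PAU17 in air1 rrp6 against rrp6 (edgeR adjusted p = 0.79), 0.77 ± 0.59 for PAU24 in air2 rrp6 against rrp6 (edgeR adjusted p = 0.9999) and -1.19 ± 0.53 for PAU12 in air1 rrp6 against air2 rrp6 (edgeR adjusted p = 0.99). PAU17 had 0.474 and 0.799 CPM in air1 rrp6 cells and 0.446 and 0.229 CPM in rrp6 cells. PAU24 had 0.839 and 0.787 CPM in air2 rrp6 cells and 0.656 and 0.272 CPM in rrp6 cells. The air1 rrp6 cells gave the lowest PAU sum of the 3 mutants, but its libraries lay inside the range of the rrp6 libraries.

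**Figure D5:**
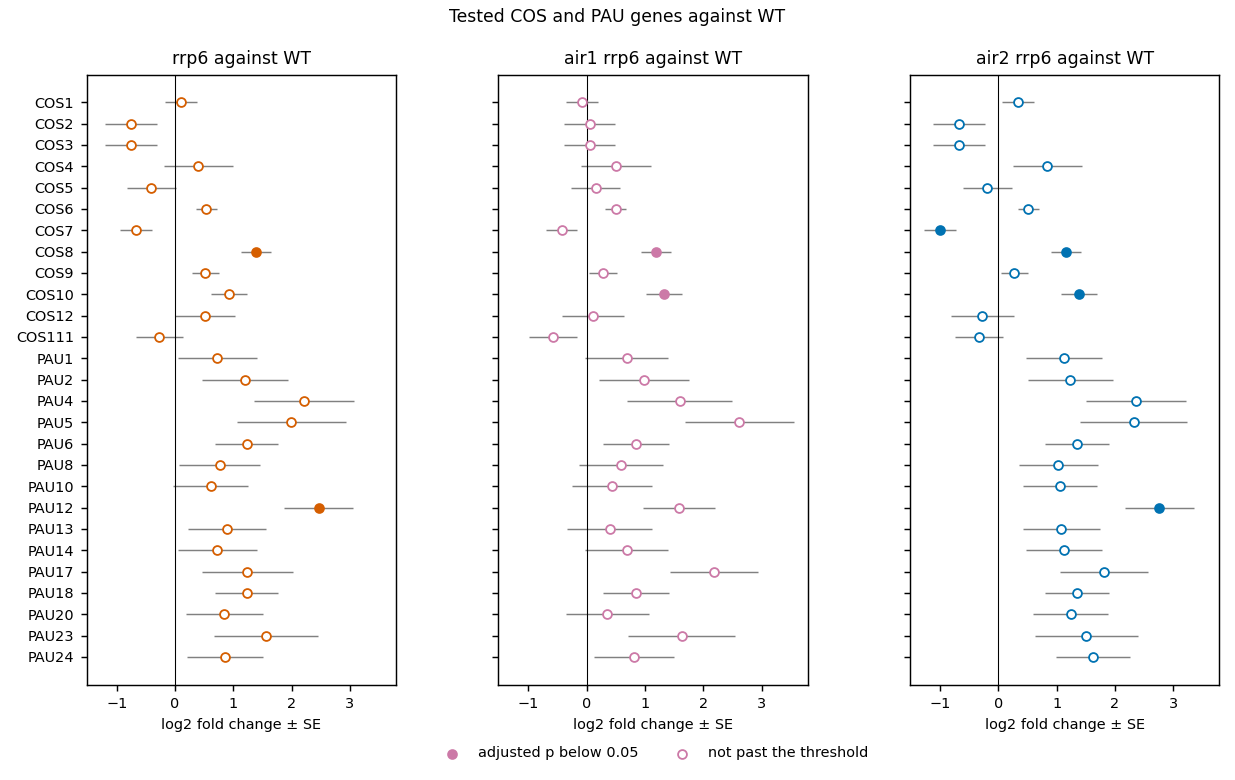
Log2 fold change of each tested COS and PAU gene against WT, with its standard error as a bar, in 1 panel each for rrp6, air1 rrp6 and air2 rrp6 cells. The called genes are COS8 in all 3 panels, COS10 in the air1 rrp6 and air2 rrp6 panels, COS7 in the air2 rrp6 panel, and PAU12 in the rrp6 and air2 rrp6 panels.

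Relatives of the families gave a mixed picture. A list of 7 genes held DAN1, DAN4 and TIR1 to TIR4, which encode cell wall mannoproteins related to PAU and known to be induced in low oxygen, and YLR040C (AFB1), which is neither a DAN nor a TIR gene. Of the 7, 2 were higher in rrp6 cells, 0 in air1 rrp6 cells and 2 in air2 rrp6 cells, and the same pair of genes, TIR2 and TIR4, made both counts. With 8.8, 7.64 and 8.75% of all features called higher, a list of this size is too short to read a share from. In air1 rrp6 cells 3 of the 7 had an unadjusted p below 0.05 by edgeR, beside 1492 of all 7543 features, and DESeq2 called 0. TIR2 had 3.68 and 2.63 CPM in rrp6 cells, 2.12 and 2.11 CPM in air1 rrp6 cells and 2.85 and 2.13 CPM in air2 rrp6 cells, against 0.754 and 0.907 CPM in WT. Its log2 fold change was 1.92 ± 0.39 in rrp6 cells (edgeR adjusted p = 0.015) and 1.58 ± 0.39 in air2 rrp6 cells (edgeR adjusted p = 0.031). TIR4 had 1.30 ± 0.31 in rrp6 cells (edgeR adjusted p = 0.029) and 1.67 ± 0.32 in air2 rrp6 cells (edgeR adjusted p = 0.0097). The median of the 7 was 0.21, -0.10 and 0.02 in rrp6, air1 rrp6 and air2 rrp6 cells.

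The DUP240 genes are the other branch of the family that COS belongs to. Of 10 tested, 0 were higher and 1 lower in each mutant strain, so that 1 of 10 was called, beside 10.1, 8.39 and 10.3% of all features in either direction. Of all features, 1.29, 0.756 and 1.54% were called lower, and a list of 10 is too short to read a share from. The gene called was PRM9 each time, a membrane protein gene known to respond to pheromone. PRM9 had 1.16 and 1.59 CPM in rrp6 cells, 1.57 and 2.03 CPM in air1 rrp6 cells and 1.08 and 1.40 CPM in air2 rrp6 cells, against 5.65 and 4.79 CPM in WT. Its log2 fold change was -1.91 ± 0.37, -1.53 ± 0.37 and -2.06 ± 0.38, with edgeR adjusted p of 0.012, 0.034 and 0.0082.

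Genes that regulate or share the low-oxygen response of PAU were set beside the same shares of 10.1, 8.39 and 10.3% of all features called. Of 11 regulators of low-oxygen and sterol genes, edgeR and DESeq2 each called 0 against WT. The number with an unadjusted p below 0.05 by edgeR was 1, 0 and 1 in rrp6, air1 rrp6 and air2 rrp6 cells. In the same order, 1750, 1492 and 1689 of all 7543 features had such a p. Of 14 low-oxygen target genes outside PAU, 1 was lower in rrp6 cells and 0 were called in either double mutant by edgeR or DESeq2, with 2 and 1 at an unadjusted p below 0.05. That gene was COX5B, the low-oxygen form of a cytochrome c oxidase subunit, at -1.12 ± 0.30 (edgeR adjusted p = 0.042). Of 14 genes of telomeric silencing, 1 was lower in each mutant strain. Counts of 0 or 1 in lists of this size are near those shares, which take both directions together. The calls were all lower, however, and 1.29, 0.756 and 1.54% of all features were called lower. The 1 silencing gene of 14 is 7.14% in each strain, but lists of this size are too short to read a share from. The silencing gene was YKU70, which encodes a DNA end-binding protein of telomeres, at -1.03 ± 0.22, -0.999 ± 0.22 and -0.94 ± 0.22 (edgeR adjusted p = 0.018, 0.026 and 0.025).

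Other genes near chromosome ends did not share 1 direction. Of 33 tested genes of other subtelomeric families, 1, 1 and 3 were higher (3.03, 3.03 and 9.09%, beside 8.8, 7.64 and 8.75% of all features) and 0 lower in rrp6, air1 rrp6 and air2 rrp6 cells. DESeq2 called 3, 1 and 4 of them. FLO1, a flocculin gene for cell adhesion, was higher in each, at 2.09 ± 0.52, 2.17 ± 0.52 and 2.37 ± 0.52 (edgeR adjusted p = 0.032, 0.034 and 0.019). THI12, of thiamine synthesis, was at 2.89 ± 0.65 (edgeR adjusted p = 0.020) and FLO5 at 1.23 ± 0.33 (edgeR adjusted p = 0.042) in air2 rrp6 cells. A near-end list held the genes closest to each chromosome end that are not members. It reached further in than the 7 genes within which most members lie. Of its 212 tested genes, 5, 4 and 7 were higher (2.36, 1.89 and 3.30%, beside 8.8, 7.64 and 8.75% of all features). In the same order of strains, 5, 2 and 5 were lower (2.36, 0.943 and 2.36%, beside 1.29, 0.756 and 1.54%). The median log2 fold changes were -0.06, -0.05 and 0.04. The near-end list shares 44 genes with the other lists, FLO1 and THI12 among them, so calls of these genes are counted on both. PHO12, an acid phosphatase gene, was lower in each mutant strain, at -1.20 ± 0.18, -1.86 ± 0.19 and -1.89 ± 0.19 (edgeR adjusted p = 0.0040, 0.00082 and 0.00073). FDC1, a decarboxylase gene, was also lower in each, at -1.78 ± 0.22, -1.66 ± 0.22 and -1.501 ± 0.21 (edgeR adjusted p = 0.0016, 0.0028 and 0.0032).

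Promoter windows of 300 bases, from 250 before to 50 after the start of the coding sequence, were searched on both strands for 2 words linked to low-oxygen control. TCGTATA, the core of the site of the sterol regulators Upc2 and Ecm22, was in 1 of 24 PAU windows and 1 of 12 COS windows, beside 4.14% of 6020 windows of coding genes. ATTGTT, the core of the site of the repressor Rox1, was in 6 of 24 PAU windows and 10 of 12 COS windows, beside 35.2% of all windows. Whether the COS windows are copies of one another was not tested. No other words were searched, so the counts do not show whether the windows hold other sites of low-oxygen control.

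The authors' deposited table of log2 ratios was set beside these values. For rrp6 over WT it gives 1.68 for COS8, 1.13 for COS10 and 3.02 for PAU12 in the authors' deposited table, all with the sign found here. Its columns headed air1/wt and air2/wt have the opposite sign to the counts. This holds for 633 of 633 and 776 of 776 features called here, and COS8 is at -1.48 and -1.44 in those columns of the authors' deposited table, so directions for the double mutants were taken from the counts only.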

How the data were processed

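Poly(A)+ RNA of 4 yeast strains was analysed from 2 tables. The first holds expected counts per feature and library as deposited by the authors, with no scaling, and 11.1 to 13.0% of the values per library were not whole numbers. The second holds log2 ratios for 5 comparisons, per the file headers, and entered no fit. Its p-value columns were not used. Bowtie 0.12.7, SAMtools and edgeR 2.2.5 are named in the submitters' processing notes, with no roles given. No source used here gives the genome build, the strand of counting or the treatment of reads with several matches.

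After rounding of the expected counts to whole numbers, features were filtered with filterByExpr of edgeR 4.0.16 (minimum count 10), scaled by TMM and fitted with 1 mean per strain over all 8 libraries by the robust quasi-likelihood test (R 4.3.3). P-values were adjusted over all 7543 features, with a threshold of 0.05. The SE is the log2 fold change divided by the square root of F. DESeq2 1.42.0, other scalings, no filter, a replicate block, fits of 2 strains, summed copies, rounding down and leaving out each library were alternatives.

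Levels are unrounded expected counts as CPM of the TMM-scaled library size. Members and gene lists were chosen with earlier results of these data known. Genes named in full were those past the threshold, the 3 most abundant per kilobase in each family, the member with the largest change in each comparison, and up to 4 called genes per related list. The low-oxygen, silencing and relative lists came from general knowledge of these pathways. RefSeq R64 gave names, coding lengths, gene order and sequences by systematic name. PER1, which has an older COS name, was left out because only an alias matched.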

Additional observations from a re-analysis of the deposited data

How the results depend on the processing

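No member changed direction past the threshold under any alternative. With library totals, the number of PAU genes called against WT was 2 in rrp6 cells, 4 in air1 rrp6 cells and 7 in air2 rrp6 cells, and with the 2 strains fitted alone 0 PAU genes were called in rrp6 cells and 1 COS gene in air1 rrp6 cells. Library totals moved the median of all features as well. Leaving out each library in turn gave 0 to 1 COS genes called in rrp6 cells, 0 to 2 in air1 rrp6 cells and 0 to 3 in air2 rrp6 cells, and 0 to 2 PAU genes in rrp6 cells and 0 to 1 in air2 rrp6 cells. With the replicate number as a block, the counts of COS genes called were 1, 2 and 3 and of PAU genes 1, 0 and 1, and no call of a member changed. Same-numbered libraries deviated together with correlations of 0.126 to 0.366 over the 6 pairs of strains, but with 2 numbers this does not show that the numbers mark a pairing. DESeq2 gave the same counts. Over all members and alternatives, 2732 values kept their side of the threshold, 35 passed it newly and 33 lost it. In the fit of summed copies, every tested member of a group took the value of its whole group. The counts of 2732, 35 and 33 therefore hold some values several times and are not separate observations. The low counts of the PAU genes limit what could be detected. Intervals from counting error would not cover reads shared among copies.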
